A study of Mus musculus with 8 samples.

Results

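Transcripts of 10 genes of the integrated stress response were measured by RNA-seq of polyadenylated RNA from mouse heart ventricles at embryonic day 9.5 (E9.5). The genes were chosen by symbol, with earlier results of these data known: *Atf4*, *Atf5*, *Ddit3*, *Trib3*, *Chac1*, *Sesn2*, *Asns*, *Psat1*, *Phgdh* and *Slc7a11*. Each was found as 1 row among the 53465 genes of the count table, and all 10 passed the filter on low counts. Ventricles of genotype *Nrg-1flox;Tie2-Cre* (mutant, labelled KO, n = 4) were compared with ventricles labelled WT (n = 4). *Nrg1* encodes neuregulin 1, a growth factor of the endocardium that acts on the myocardium, and the Tie2 promoter drives Cre in endothelial cells, the endocardium included, and in blood-forming cells. The labels give no treatment, strain or sex, and do not say whether a library came from 1 embryo or from a pool, or whether WT embryos carried the floxed allele or Cre. The p-values therefore measure the spread between these samples, part of which may be technical.

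The integrated stress response is a shared output of kinases that phosphorylate the translation initiation factor eIF2alpha. General protein synthesis then falls, while the mRNA of ATF4, a basic leucine zipper transcription factor, is translated more. ATF4 raises genes that make, import and charge amino acids, genes that feed back on the response, and genes that lead to cell death when the stress lasts. In the heart the response is known from mitochondrial and proteotoxic stress.

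Total expected counts ranged from 11852372 to 14360323 per library. *Nrg1* had 61, 59, 71 and 72 counts in the mutant libraries and 156, 131, 121 and 173 in the WT libraries, and was lower in the mutants by edgeR's quasi-likelihood test (fold of 0.477, adjusted p = 0.00268, and 0.474 without mutant replicate 1). Mutant replicate 1 stood apart. The chi-square per degree of freedom between its counts and those of another mutant library was 30.7 to 52.7, against 4.67 to 14.5 between the other mutant libraries and 3.77 to 6.14 between WT libraries. The members and the counts of each related list are therefore given with and without this library, and single genes of the lists with all libraries unless stated. The labelled tissue was checked against its markers: the summed level of 10 cardiomyocyte genes was 31624 to 34191 CPM (counts scaled to a library of 1000000) in the mutants and 33473 to 35052 in WT. The summed level of 8 endocardial and endothelial genes was 703 to 774 CPM in the mutants and 817 to 898 in WT. The level of 10 erythroid genes, hemoglobins included, was 68682, 19822, 40170 and 41166 CPM in mutant replicates 1 to 4 and 6689 to 8089 in WT. All 10 erythroid genes were called higher with and without mutant replicate 1. In such bulk samples, a change in the number of cells of a type and a change in RNA per cell cannot be told apart.

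Promoters of the 10 genes were searched for TGATGNAA, the core of the composite element that ATF4 binds with C/EBP proteins (reverse complement TTNCATCA, N being any base). The windows, from RefSeq with GRCm38.p6 coordinates, run from 250 bases before to 50 after a transcription start. The core was present in the promoters of 4 of the 10 genes, *Asns*, *Chac1*, *Slc7a11* and *Trib3*, and in 1219 of the 27025 genes with a window (4.51%). The exact form TGATGCAA was in *Chac1* and *Slc7a11*, against 1.032% of all genes, and is a special case of the first search. All 10 genes had a window, 12 in all. The stretches with a match are shown because they belong to members with contrasting measurements: *Trib3* and *Asns* were high in every mutant library, *Chac1* was extreme in a single library, and *Slc7a11* was at the limit of detection. They are written on the strand of the gene, with the match in capitals. The positions are chr2:119351002-119351101 (plus) for *Chac1*, chr6:7693215-7693244 (minus) for *Asns*, chr2:152344028-152344057 (minus) for *Trib3* and chr3:50443615-50443714 (minus) for *Slc7a11*.
Trib3: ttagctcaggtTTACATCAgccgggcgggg
Asns: gtcccagccacaTGATGAAActtcccgcac
Chac1: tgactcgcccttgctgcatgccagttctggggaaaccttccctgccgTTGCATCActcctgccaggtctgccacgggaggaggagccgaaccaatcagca
Slc7a11: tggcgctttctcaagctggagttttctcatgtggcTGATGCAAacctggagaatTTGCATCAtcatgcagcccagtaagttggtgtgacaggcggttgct
Relative to the RefSeq start, the match began 193 bases before it in *Chac1*, 23 before it in *Asns*, 66 and 47 before it in *Slc7a11*, and at base 15 of the transcript in *Trib3*. These starts differ from the ends of the GENCODE genes given below: the match lies inside the GENCODE gene in *Asns* and outside it in *Trib3*. Matching letters describe a sequence and do not show binding. The windows of the other members held no match.

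Of the 10 genes, 7 were called higher in the mutants and 0 lower at a false discovery rate (FDR) of 0.05, where 5.11% of the 14451 genes tested were called higher and 3.5% lower. When mutant replicate 1 was left out, 8 were called higher and 0 lower, where 9.35% of 14630 genes were called higher and 7.89% lower. The 7 genes were called both ways, and *Chac1* was added. *Chac1* had fewer than 10 counts in every WT library and passed the filter through the mutant libraries, where it was high, so neither its call nor its separation from WT is support for the counts that include it. At an unadjusted p under 0.05 with all libraries, 9 of the 10 were higher, *Chac1* included, and 0 lower, where 13.1% of all genes were higher and 11.9% lower. DESeq2 called 8 of the 10 higher, *Chac1* included, and 0 lower (7.14% and 5.18% of all genes). It gave no adjusted p for *Ddit3* and *Slc7a11*, so these were not assessed by it. Limma-voom called 7 higher and 0 lower (4.68% and 3.61%). In 8 of the 10, *Chac1* included, all 4 mutant libraries lay above all 4 WT libraries, as in 9.52% of genes tested. In the same 8, mutant replicates 2 to 4 also lay above all WT libraries, as in 14.6% of genes tested. The exceptions were *Ddit3* and *Slc7a11*. The median log2 fold change of the 10 was 0.96 with all libraries and 0.56 without mutant replicate 1, beside medians over all genes tested of -0.0014 and -0.0076.

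**Figure D1:**
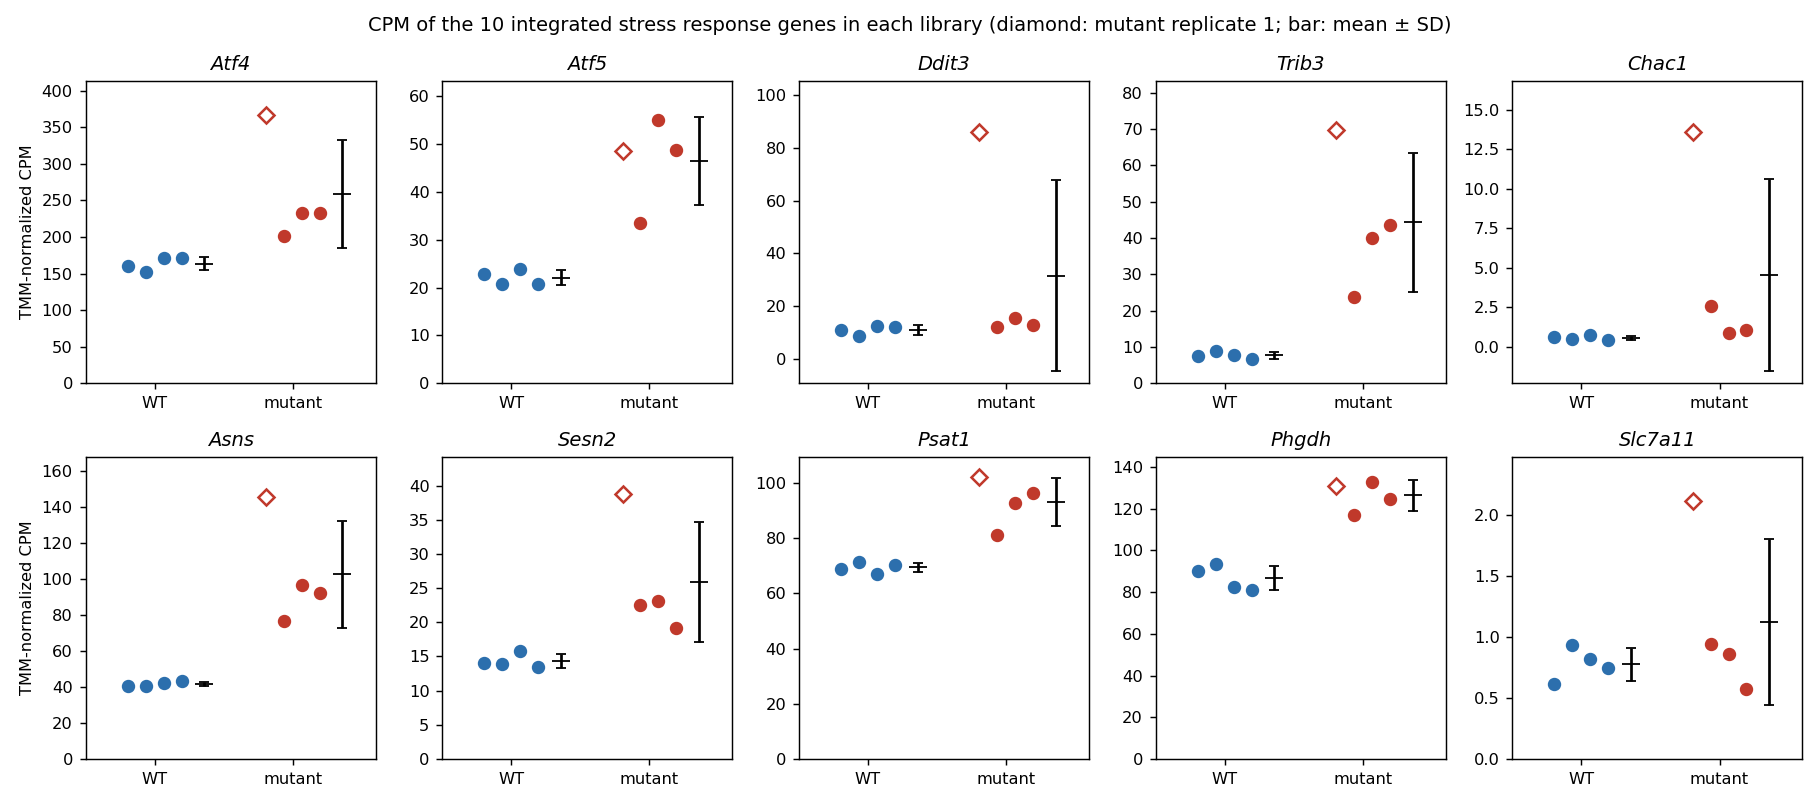
CPM of each of the 10 genes in every library, WT in blue and mutant in red, with the diamond for mutant replicate 1 and bars for the mean ± SD of 4 libraries. Each panel has its own scale. Mutant and WT libraries do not overlap in 8 panels, and the diamond is the highest point in 8 panels, the exceptions being *Atf5* and *Phgdh*.

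Levels between genes were compared in WT as CPM per kilobase of exon. *Atf4* was highest at 69.4 ± 3.78 (SD, n = 4), followed by *Phgdh* at 34.9 ± 2.40, *Psat1* at 16.3 ± 0.421, *Asns* at 15.2 ± 0.462 and *Atf5* at 11.1 ± 0.773. Below these came *Ddit3* at 6.43 ± 1.01, *Sesn2* at 4.12 ± 0.305 and *Trib3* at 3.61 ± 0.426 CPM per kilobase. *Chac1* at 0.345 ± 0.0879 and *Slc7a11* at 0.0558 ± 0.00968 were near the floor. Only the WT ranges of *Sesn2* and *Trib3* overlapped between neighbours in this order. In the mutants *Trib3* reached 20.8 ± 8.96 CPM per kilobase, close to the 23.3 ± 4.61 of *Atf5*.

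Among the transcription factors, *Atf4* (ENSMUSG00000042406, chr15:80255184-80257541, GRCm38, plus strand) had 367, 202, 233 and 233 CPM in mutant replicates 1 to 4 and 160, 153, 171 and 171 in WT replicates 1 to 4. Every mutant library was above every WT library, with replicate 1 at 1.58 times the median of the other mutants. The fold was 1.58 (log2 fold change 0.66 ± 0.16 SE, adjusted p = 0.0342). It was 1.36 without mutant replicate 1 (0.44 ± 0.063, adjusted p = 0.00162), where the spread was smaller. With mutant replicate 1 kept, the call ended when mutant replicate 3 or 4 or any WT library was left out, with adjusted p from 0.0541 to 0.101.

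*Atf5* (ENSMUSG00000038539, chr7:44812256-44816658, minus strand), a relative of ATF4 whose mRNA is also translated more when eIF2alpha is phosphorylated, showed another pattern. It had 48.7, 33.4, 55.0 and 48.8 CPM in the mutants and 22.8, 20.8, 23.9 and 20.8 in WT. Mutant replicate 1 was not the highest here and was 0.997 times the median of the other mutants. The fold was 2.11 (log2 1.08 ± 0.14, adjusted p = 0.00244) and 2.08 without that library (adjusted p = 0.00128). *Atf5* shares 82 of its 1993 exon bases with *Nup62* on the other strand, and the strand setting of the counting is not given in the sources used here.

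*Ddit3* (ENSMUSG00000025408, chr10:127290774-127296288, plus strand) encodes CHOP, the factor linked to cell death in prolonged stress. It had 85.9 CPM in mutant replicate 1 and 12.02, 15.4 and 13.0 in mutant replicates 2 to 4, against 10.9, 8.60, 12.4 and 12.1 in WT. The first library was 6.60 times the median of the other mutants, which overlapped with WT. The fold of 2.85 was not called (log2 1.51 ± 0.62, adjusted p = 0.163), nor was the fold of 1.23 without that library (log2 0.29 ± 0.14, adjusted p = 0.183). The exact two-sided permutation p of the mean log2 level was 0.0857 with all libraries and 0.171 without mutant replicate 1. *Ddit3* shares 68 of its 1713 exon bases with *Mars* on the other strand, which was itself called higher (log2 0.31, adjusted p = 0.0361).

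*Trib3* (ENSMUSG00000032715, chr2:152337422-152344032, minus strand), a pseudokinase that is raised by ATF4 and CHOP and restrains ATF4, had the largest fold among the called members. Its levels were 69.7, 23.7, 40.1 and 43.6 CPM in the mutants and 7.49, 8.88, 7.64 and 6.69 in WT. Even the lowest mutant library, replicate 2, was above the highest WT library. The fold was 5.75 (log2 2.52 ± 0.29, adjusted p = 0.0018), and 4.66 without mutant replicate 1 (log2 2.22 ± 0.19, adjusted p = 2.12e-04).

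*Chac1* (ENSMUSG00000027313, chr2:119351229-119354381, plus strand), an enzyme that degrades glutathione, was low in every library but mutant replicate 1. Its counts were 160, 36, 12 and 13 in the mutants and 8, 7, 9 and 6 in WT, or 13.6, 2.61, 0.863 and 1.07 CPM against 0.611, 0.501, 0.740 and 0.406. Mutant replicate 1 was 12.7 times the median of the other mutants, and all mutants were above WT. The fold of 7.89 was not called (log2 2.98 ± 0.90, adjusted p = 0.0717). The fold of 2.70 without mutant replicate 1 was called at the edge of the threshold (log2 1.43 ± 0.44, adjusted p = 0.0492), and leaving out any further library other than mutant replicate 3 ended that call, with adjusted p from 0.0672 to 0.21. Without mutant replicates 1 and 2 the log2 fold change was 0.78.

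*Sesn2* (ENSMUSG00000028893, chr4:132492032-132510501, minus strand) encodes sestrin 2, which senses leucine and restrains mTORC1. It had 38.7, 22.5, 23.1 and 19.1 CPM in the mutants and 14.1, 13.9, 15.9 and 13.5 in WT, with no overlap. The fold was 1.81 (log2 0.85 ± 0.20, adjusted p = 0.0286) and 1.51 without mutant replicate 1 (log2 0.60 ± 0.094, adjusted p = 0.00267). With mutant replicate 1 kept, leaving out any WT library ended the call (adjusted p from 0.0637 to 0.0882).

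Among the genes of amino acid supply, *Asns* (ENSMUSG00000029752, chr6:7675169-7693254, minus strand), asparagine synthetase, had 145, 76.3, 96.7 and 92.2 CPM in the mutants. The WT libraries were tightly grouped at 40.5, 40.5, 42.2 and 43.1 CPM. The fold was 2.47 (log2 1.303 ± 0.17, adjusted p = 0.00251) and 2.13 without mutant replicate 1 (log2 1.09 ± 0.076, adjusted p = 7.07e-05). All mutant libraries lay well above WT, replicate 1 being 1.57 times the median of the others.

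*Phgdh* (ENSMUSG00000053398, chr3:98313170-98339990, minus strand), which catalyses the committed step of serine synthesis, had 131, 117, 133 and 125 CPM in the mutants and 89.9, 93.6, 82.6 and 81.0 in WT. The fold was 1.46 (log2 0.54 ± 0.068, adjusted p = 0.00228) and 1.44 without mutant replicate 1 (adjusted p = 8.07e-04). *Psat1* (ENSMUSG00000024640, chr19:15904678-15947337, minus strand), the next enzyme of that pathway, had 102, 81.4, 92.7 and 96.4 CPM in the mutants and 69.0, 71.3, 67.1 and 70.2 in WT. The fold was 1.34 (log2 0.42 ± 0.073, adjusted p = 0.0077) and 1.298 without mutant replicate 1 (adjusted p = 0.0031). Both serine genes had small folds with little spread between mutant libraries, and mutant replicate 1 was only 1.05 and 1.10 times the median of the other mutants.

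*Slc7a11* (ENSMUSG00000027737, chr3:49892526-50443614, minus strand), the cystine and glutamate exchanger, had 25, 13, 12 and 7 counts in the mutants and 8, 13, 10 and 11 in WT, or 2.12, 0.941, 0.863 and 0.577 CPM against 0.611, 0.931, 0.822 and 0.744. Mutant replicates 2 to 4 overlapped with WT. The log2 fold change was 0.51 ± 0.40 (adjusted p = 0.465) and 0.04 ± 0.32 without mutant replicate 1 (adjusted p = 0.949). A difference between the groups was thus not shown, at counts of at most 25.

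For the 8 members without overlap the exact two-sided permutation p was 0.0286 with and without mutant replicate 1. This is the smallest that 70 relabellings of 4 against 4, or 35 of 3 against 4, can give. With 4 against 4 the separation fixes it, so it adds nothing to it. With 3 against 4 it also depends on the spacing of the values.

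**Figure D2:**
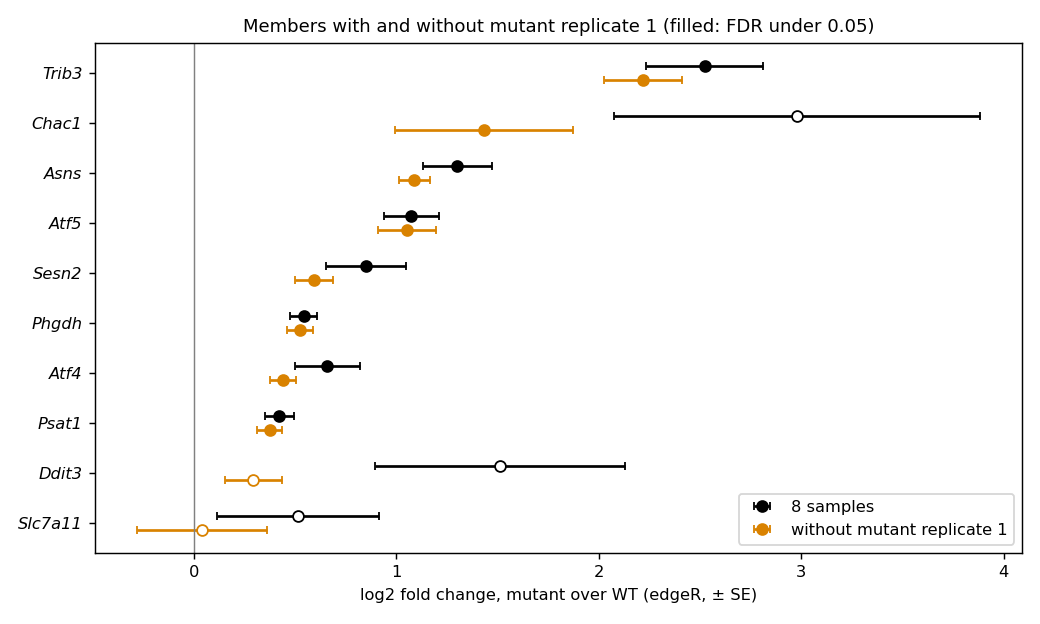
Log2 fold change of each gene, mutant over WT, with its standard error, for all 8 libraries (black) and without mutant replicate 1 (orange). Filled points passed the FDR of 0.05. The error bars of *Chac1* and *Ddit3* shorten without that library, and *Trib3*, *Chac1*, *Asns* and *Atf5* stay above a log2 fold change of 1.

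The members differed in how mutant replicate 1 related to the other mutants. The log2 ratio of mutant replicate 1 over the mean of mutant replicates 2 to 4 was 2.80 for *Chac1*, 2.63 for *Ddit3* and 1.02 for *Slc7a11*. It was 0.95 for *Trib3*, 0.83 for *Sesn2*, 0.72 for *Atf4* and 0.71 for *Asns*. *Psat1*, *Atf5* and *Phgdh* were at 0.18, 0.088 and 0.071. The ratio of mutant replicates 2 to 4 over WT ordered the genes otherwise, with *Trib3* at 2.15, *Asns* at 1.08 and *Atf5* at 1.04, and *Ddit3* at 0.28 and *Slc7a11* at 0.019. The median of the first ratio was 0.78 over the 10 members, 0.44 over 10 amino acid transporters and -0.0055 over all genes tested. It was 1.32 over 10 genes of hypoxia and glycolysis and 0.56 over 14 chaperones and related genes of the endoplasmic reticulum (ER). It was 3.25 over 2 metallothioneins, 1.13 over 10 immediate early genes, 1.03 over 7 NRF2 targets and 0.18 over 7 heat shock genes. The median of the second ratio was 0.55 over the members, 0.52 over the transporters, 0.058 over the hypoxia genes and -0.13 over the ER genes. For metallothioneins, immediate early genes, NRF2 targets and heat shock genes it was 2.08, 0.097, 0.26 and 0.032. The embryo or preparation behind mutant replicate 1 cannot be told apart from this single library.

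**Figure D3:**
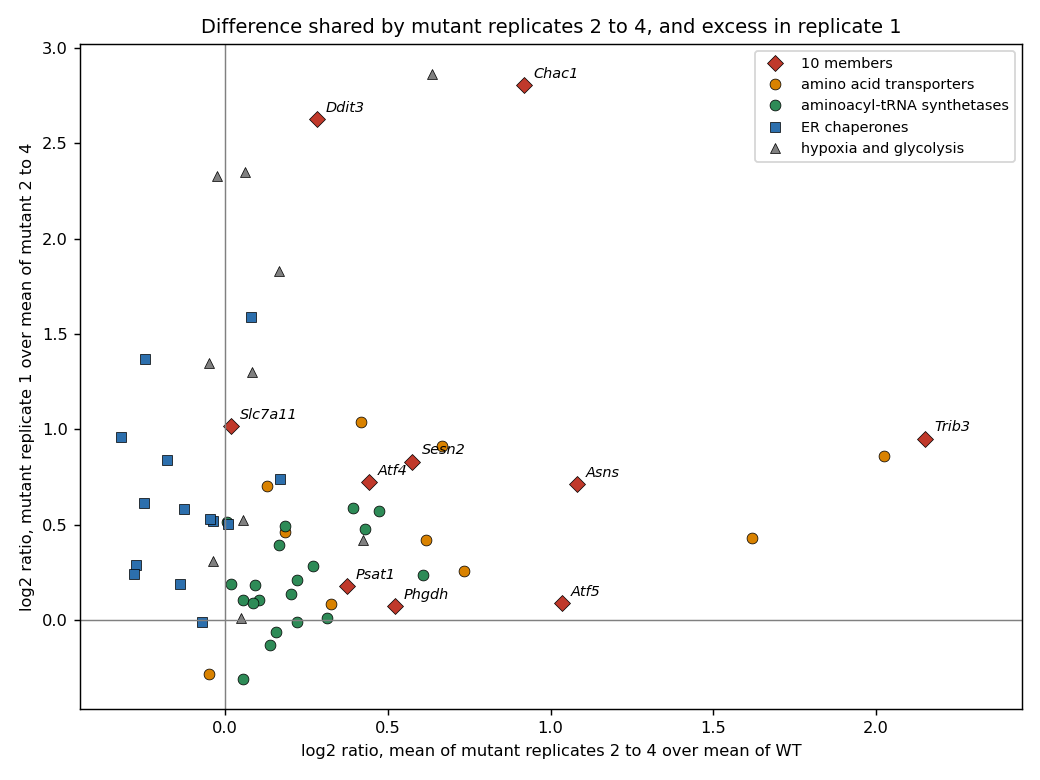
For each gene, the log2 ratio of mutant replicates 2 to 4 over WT (x axis) against the log2 ratio of mutant replicate 1 over mutant replicates 2 to 4 (y axis), for the 10 members and genes of 4 other lists. *Ddit3* and *Chac1* lie high on the y axis with several hypoxia genes, while *Trib3*, *Asns*, *Atf5* and several transporters lie far to the right.

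The mutant library with the lowest erythroid level was also the lowest mutant in 7 of the 10 members. In that library, replicate 2, hemoglobins took 1.93% of counts, against 6.26% in replicate 1, 3.80% in replicate 3, 3.89% in replicate 4 and 0.671% to 0.799% in WT. The same held for 22.3% of all genes tested and for 71.2% of the 739 genes called higher, a share near that of the members. The 7 members were *Atf4*, *Atf5*, *Ddit3*, *Trib3*, *Asns*, *Psat1* and *Phgdh*, and not *Sesn2*, *Chac1* or *Slc7a11*. The part of the erythroid signal in these results was not tested. Removing hemoglobin and mitochondrial genes before normalization left 7 members called higher with all libraries, where 780 of 14397 genes were. Without mutant replicate 1 it left 8, *Chac1* included, where 1445 of 14665 genes were called higher.

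Upstream of ATF4, 1 of 8 genes for eIF2alpha kinases, their substrate and phosphatase subunits was called higher and 0 lower, and 2 were higher without mutant replicate 1. The gene called both ways was *Eif2ak1*, the heme-regulated kinase known from red cell precursors. It had 112, 68.3, 96.6 and 98.7 CPM in the mutants and 56.7, 61.0, 61.8 and 67.1 in WT (log2 0.61 ± 0.13, adjusted p = 0.0218). *Ppp1r15a*, the stress-induced phosphatase subunit that reverses eIF2alpha phosphorylation, had 87.8, 28.9, 40.0 and 42.2 CPM against 23.6 to 25.6 in WT. It passed only without mutant replicate 1 (log2 0.57 ± 0.11, adjusted p = 0.00782), against 0.998 ± 0.29 (adjusted p = 0.061) with it. The log2 fold changes of *Eif2ak2*, *Eif2ak3* and *Eif2ak4*, the kinases of viral RNA, ER stress and amino acid lack, were -0.15, 0.16 and -0.03, none of them called. Transcript levels do not measure the activity of these kinases.

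None of 6 partner and feedback transcription factors was called by edgeR with or without mutant replicate 1, and DESeq2 and limma-voom also called 0. At an unadjusted p under 0.05, 2 were higher with all libraries. *Cebpg*, a dimer partner of ATF4, was near its WT level (log2 0.10, adjusted p = 0.676). *Atf3*, picked after its values were seen, had 58.6 CPM in mutant replicate 1, 12.01 to 14.9 in the other mutants and 10.6 to 12.03 in WT (log2 1.12, adjusted p = 0.181), a pattern like that of *Ddit3*.

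Amino acid import was covered by 10 transporters, of which 6 were called higher and 0 lower, with a median log2 fold change of 0.75. The counts became 8 and 0 without mutant replicate 1, with a median of 0.52. *Slc7a3*, a carrier of cationic amino acids, had 11.5, 5.29, 6.55 and 6.59 CPM in the mutants and 0.860 to 1.31 in WT (log2 2.71 ± 0.28, adjusted p = 0.00161). *Slc6a9*, a glycine transporter, had 62.7, 31.1, 53.9 and 54.2 CPM against 13.2 to 15.6 (log2 1.77 ± 0.19, adjusted p = 0.00161). *Slc1a4* rose with a log2 fold change of 0.98 and *Slc43a1* with 0.81, while *Slc38a2* (0.34) and *Slc38a1* (-0.12) were not called.

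Of 14 further genes of serine, glycine, one-carbon, proline and asparagine metabolism, 4 were called higher and 0 lower, with a median of 0.42. *Shmt2*, the mitochondrial enzyme that turns serine into glycine, had 246, 158, 185 and 182 CPM in the mutants and 97.5 to 114 in WT (log2 0.90 ± 0.12, adjusted p = 0.00294). The other genes called were *Mthfd2* (log2 0.59), *Pycr1* (0.55) and *Aldh18a1* (0.55), of the mitochondrial folate and proline pathways. Leaving out mutant replicate 1, 5 were higher and 1 lower, with a median of 0.20.

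Of 20 cytosolic aminoacyl-tRNA synthetases, which charge tRNAs with amino acids, 8 were called higher and 0 lower, with a median of 0.23. In the 7 other libraries, 11 were higher and 0 lower, with a median of 0.18. *Vars* had 312, 216, 308 and 271 CPM in the mutants and 166 to 182 in WT (log2 0.67 ± 0.11, adjusted p = 0.00516). *Nars* (0.64), *Cars* (0.57) and *Sars* (0.57) followed, and *Gars* was not called (0.08). Of 10 tested genes among 12 other outputs linked to ATF4, 3 were higher and 0 lower: *Cdkn1a*, an inhibitor of the cell cycle (log2 0.72), *Lonp1*, a mitochondrial protease (0.51), and *Eif4ebp1*, a repressor of translation initiation (0.47). The counts were 5 and 0 without mutant replicate 1. *Eif4ebp1* was even across the mutants, at 179, 172, 169 and 166 CPM against 115 to 128 in WT (adjusted p = 0.0018).

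Chaperones of the ER and related genes, among them *Xbp1* itself, are targets of ATF6 and XBP1, the other arms of the response to unfolded protein. Of 14 such genes, 0 were called higher or lower by edgeR with all libraries, with a median of 0.06. At an unadjusted p under 0.05, 1 was higher and 2 were lower, DESeq2 called 1 lower and limma-voom 0. Without mutant replicate 1, 7 were lower and 0 higher, with a median of -0.13. *Hspa5*, the ER chaperone BiP, had 1643 CPM in mutant replicate 1, 1114, 1088 and 1088 in mutant replicates 2 to 4 and 1173 to 1218 in WT. Its log2 fold change was 0.04 (adjusted p = 0.863) with all libraries and -0.12 ± 0.034 without mutant replicate 1 (adjusted p = 0.0308). *Hsp90b1* behaved alike, at 0.08 and -0.18 (adjusted p = 0.0175 without that library).

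**Figure D4:**
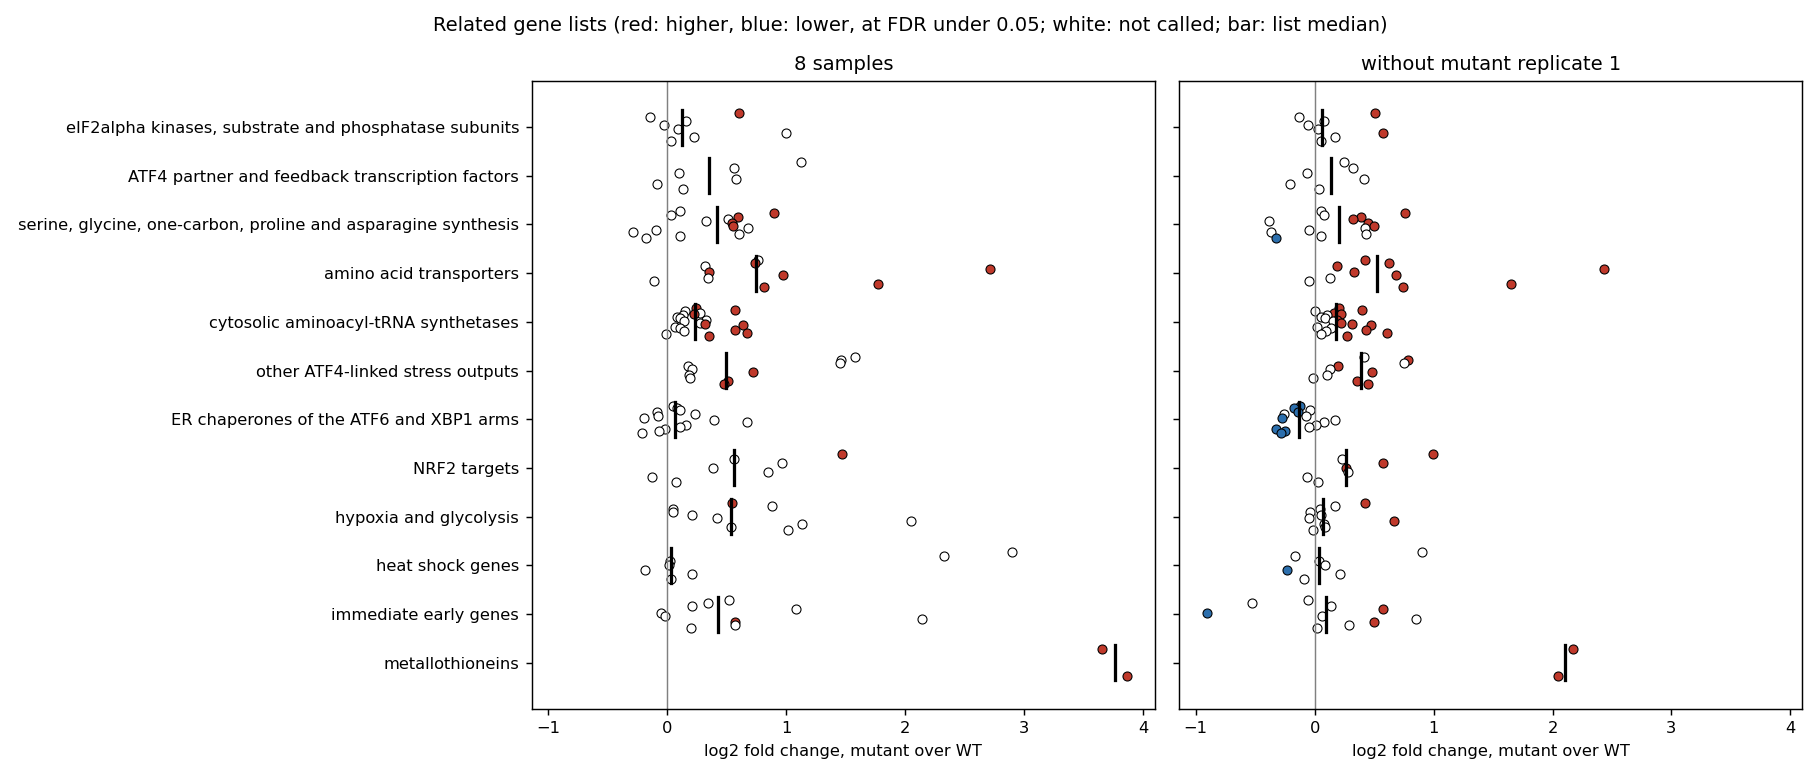
Log2 fold changes, mutant over WT, of the genes of each related list, with all 8 libraries (left) and without mutant replicate 1 (right). Red points were called higher and blue points lower at an FDR of 0.05, and the bar is the list's median. Red points gather in the transporter and synthetase rows of both panels, and blue points appear in the ER chaperone row of the right panel.

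Across the lists without the 10 members, 27 of 118 genes tested were called higher and 0 lower by edgeR. At an unadjusted p under 0.05 these counts were 58 and 3, by DESeq2 42 and 1, and by limma-voom 23 and 0, the shares over all genes being those given with the members. Without mutant replicate 1 edgeR called 40 higher and 10 lower. The lists, like the members, were chosen with earlier results of these data known, so these counts are a description only.

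The shared pattern of the members was summarized as the mean z-score of their log2(CPM + 0.5) in each library. With all libraries it was 1.76 in mutant replicate 1, 0.22, 0.56 and 0.38 in mutant replicates 2 to 4, and -0.79 to -0.66 in WT. Among 9755 genes with a mean of at least 10 CPM, those with the highest Pearson r to it over the 8 libraries were *Irs2* (0.997), *Sars* (0.993), *Pim1* (0.993), *Dennd4b* (0.993) and *Slc1a4* (0.992). Without mutant replicate 1 the list was another one, with *Rabl6* (0.998), *Apba3* (0.993), *Erf* (0.992), *Trip6* (0.990) and *Bax* (0.989) among 9723 genes over 7 libraries. These correlations run over libraries that fall into both groups, so they describe the group difference and the excess of mutant replicate 1 and carry no test.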

How the data were processed

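RNA-seq libraries of polyadenylated RNA (single reads) from 4 WT and 4 *Nrg-1flox;Tie2-Cre* ventricles at E9.5 were analysed. The deposited values are expected counts, which the authors estimated for each gene with RSEM 1.3.1 after trimming with cutadapt against GRCm38 (submitters' processing notes), not scaled for library size or length; 0 columns were left unused. RSEM divides reads that match several genes between them. Symbols were taken from the table or matched by gene ID (53274 of 53465 genes), and positions and exon lengths from GENCODE M21 (GRCm38).

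Counts were rounded. Genes were filtered with filterByExpr, normalized by TMM and tested with edgeR 4.0.16 (glmQLFit, glmQLFTest; R 4.3.3), mutant against WT, at an FDR of 0.05 (Benjamini-Hochberg, over every gene tested). The standard error is the log2 fold change over the square root of F. CPM use TMM library sizes of the 8 libraries. Single members were also compared by exact two-sided permutation of mean log2(CPM + 0.5). Other settings were DESeq2 1.42.0, voom from limma 3.58.1, robust dispersion, other scalings, other filters, a replicate block and leaving out libraries.

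The 10 members and the related lists were chosen with earlier results of these data known. Besides the members, up to 4 called genes of each list (largest log2 fold change first), up to 2 not called with the highest CPM, the 4 eIF2alpha kinases, *Ppp1r15a*, *Mt1*, *Mt2* and the 5 genes most like the members' pattern could be named. *Nrg1*, marker genes and genes that overlap a member were named for those reasons. *Atf3*, *Vegfa*, *Hspa1a* and *Hspa1b* were named after their values were seen. The paper given with the series describes other hearts, so no method was taken from it.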

Additional observations from a re-analysis of the deposited data

Results flagged for a closer look

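Values were taken as log2(CPM + 0.5). A library was flagged where its gap to the nearest other library of its group, as a share of the group's range, passed Dixon's 95% critical value for 4 samples. The groups came from 47 genes picked by rule from the related lists, the 10 members and the summed markers. Of 128 groups of 4 values tested, 18 passed, where chance gives about 6.4, and 11 of the 18 were mutant replicate 1. Genes named for other reasons, such as *Atf3*, *Vegfa* and *Nrg1*, were not put to this test.

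Among the 10 members, 1 was flagged: *Ddit3* in mutant replicate 1 (share of the range 0.876). *Chac1* and *Slc7a11* were also highest there but did not pass on this scale. Related genes with mutant replicate 1 far above the other mutants were *Lonp1* (0.949), *Cebpg* (0.862), *Sqstm1* (0.860) and *Slc1a4* (0.854). The chaperones *Hsp90aa1* (0.965), *Hspa5* (0.943) and *Hsp90b1* (0.852) and the NRF2 target *Nqo1* (0.876) were also highest in that library. *Got1* was lowest in it (0.863). The summed macrophage and leukocyte markers were also flagged in mutant replicate 1 (0.883), and the summed endocardial and endothelial markers in mutant replicate 3 (0.870).

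Within WT, the flags were *Aldh18a1* in replicate 4 (0.929), *Hsp90b1* in replicate 2 (0.921), *Gars* in replicate 3 (0.875), *Slc1a4* in replicate 2 (0.849), *Nqo1* in replicate 4 (0.841) and the summed liver and yolk sac markers in replicate 4 (0.840). The WT flags are spread over 3 libraries.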

How the results depend on the processing

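*Trib3*, *Asns*, *Atf5*, *Phgdh* and *Psat1* were called higher in every fit run, with and without mutant replicate 1. Over the fits that left out 1 library, 5 to 8 members were called higher and 0 lower, and 7 to 8 once mutant replicate 1 was left out as well. Over all genes, 335 to 1368 and 744 to 1630 were called higher in these fits, and the counts of 8 include *Chac1*. So does the count of 7 in the fit that left out only mutant replicate 3, where *Atf4* was not called. The number of related genes called higher was 27, and became 42 with DESeq2 and 15 with the replicate block, while 1 was called lower with DESeq2. *Slc7a11* without mutant replicate 1 changed sign with the replicate block (log2 -0.0757) and, over the fits that left out another library, ranged from -0.0938 to 0.212, none of them called. *Chac1* was called with all libraries by DESeq2 (adjusted p = 0.00193) and without a filter (0.0237), over a range of 0.00193 to 0.223 in the alternatives that kept all libraries. The cause of these shifts was not tested. The replicate numbers did not pair the samples, since same-numbered mutant and WT libraries deviated from their group means with correlations of -0.0082, -0.10, -0.03 and 0.023. With the block, 616 of 14451 genes were called (398 higher) in place of 1245, and 6 members, *Atf4* having an adjusted p of 0.0557. Leaving out mutant replicate 1, the block gave 7 members and 576 of 14630 genes higher, *Chac1* having an adjusted p of 0.138. The same *Chac1* contrast had an adjusted p of 0.0776 with limma-voom and 0.0518 with upper-quartile normalization. *Slc7a11* and *Chac1* had the fewest counts of the members, 6 to 13 in every WT library; what depth contributed was not tested.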

Other observations

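Stress genes outside the ATF4 lists were measured in the same libraries. Both metallothioneins, which bind zinc and copper, were higher: *Mt1* had 894, 71.2, 133 and 121 CPM in the mutants and 18.4 to 28.4 in WT (log2 3.66 ± 0.77, adjusted p = 0.019), and *Mt2* had 747, 33.2, 89.0 and 78.9 against 10.95 to 21.8 (3.86 ± 0.92, adjusted p = 0.0307). Their log2 fold changes without mutant replicate 1 were 2.17 and 2.04. Limma-voom called 1 of them with all libraries.

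Of 7 tested NRF2 targets, which answer oxidative stress, 1 was called higher and 0 lower with all libraries, and 3 and 0 without mutant replicate 1. The quinone reductase *Nqo1* passed both ways (log2 1.47, adjusted p = 0.0484, and 0.99, adjusted p = 0.0353), and limma-voom called 0 of the 7 with all libraries. *Nqo1* had 49, 21, 21 and 21 counts in the mutants and 9, 10, 8 and 16 in WT, so it passed the filter through the mutant libraries and its call is no support for these counts. Of 10 genes of hypoxia and glycolysis 1 was higher, the glucose transporter *Slc2a1* (log2 0.54, adjusted p = 0.0133), and 2 without mutant replicate 1. *Vegfa*, picked after its values were seen, had 388 CPM in mutant replicate 1 and 101 to 120 in the other mutants, against 91.7 to 110 in WT.

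None of 7 heat shock genes was called by edgeR with all libraries, and 1 was lower without mutant replicate 1. With all libraries, 3 were higher and 1 lower at an unadjusted p under 0.05, and DESeq2 called 1 higher. *Hspa1a* and *Hspa1b* were picked after their values were seen. Their log2 ratios of mutant replicate 1 over the mean of mutant replicates 2 to 4 were 3.47 and 4.10. The median of this ratio over the 7 genes was 0.18. Of 10 immediate early genes, *Dusp1*, a phosphatase of MAP kinases, was higher (log2 0.57, adjusted p = 0.00592). With mutant replicate 1 left out, 2 were higher and 1 lower.

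Markers of other cell types were summed as well. The 6 macrophage and leukocyte genes summed to 8.49 to 12.7 CPM in the mutants and 4.77 to 4.87 in WT, with 1 of 2 tested called higher. The 6 liver and yolk sac genes summed to 3.16 to 9.92 against 1.08 to 3.44, and the 6 neural genes to 13.8 to 19.4 against 14.8 to 20.7, *Neurog1* being at 0 in every library. The 6 epicardial and proepicardial genes summed to 198 to 331 CPM against 128 to 195, with 2 called higher and 0 lower, and 3 and 0 without mutant replicate 1.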
